A study of Mus musculus with 8 samples.

Results

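The genes described here build and start the replicative helicase: the 6 subunits Mcm2 to Mcm7, the loading factors Cdc6 and Cdt1, and Mcm10 and Cdc45, which turn the loaded helicase into a moving one. They were chosen by gene symbol, and every probe set that the platform annotation gives to 1 of these symbols alone was taken. This gave 28 of the 45037 probe sets other than controls, and 26 of them passed the filter on dim signals, against 31605 on the whole array. All 10 genes kept at least 1 probe set. The 2 that did not pass were an Mcm6 probe set at 9.16 to 16.4 and a Cdt1 probe set at 15.8 to 37.6 in deposited signal over the 8 arrays.

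Mouse embryonic stem cells were profiled on 8 Affymetrix 430 2.0 arrays. The cells carried a short hairpin RNA (shRNA) against Rif1 or a control shRNA, 2 arrays for each of 4 groups. J1 cells, of strain 129S4/SvJae, received Rif1 shRNA or control shRNA by lipofection and were harvested 48 h afterwards. F1 cells, of background C57BL/6xC3H, carried Rif1 shRNA stably or control shRNA and were taken at passage 16; the cell line label of the F1 control arrays also names the stable knockdown line. All groups were grown on feeder cells, and the labels speak of virus or siRNA in general beside the shRNA named per sample. No label says whether the stable cells were 1 clone or a pool, or whether the 2 arrays of a group were separate cultures, so each p-value measures only the spread between these arrays, which may be technical. Time after knockdown, strain, way of delivery, depth of knockdown and RNA quality, given below, all differ between J1 and F1 and cannot be told apart.

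In the G1 phase, Cdc6 joins the origin recognition complex on DNA, Cdt1 brings in the Mcm2 to Mcm7 ring, and the ring is closed around the DNA in an inactive state, which is called licensing. At the start of S phase the kinase Cdc7 with its partner Dbf4 phosphorylates the ring, and Cdc45 and the GINS complex join it to form the active helicase, with Mcm10 needed for the last step. The Rif1 protein brings protein phosphatase 1 to origins, where it removes that phosphate from MCM subunits. The arrays measured mRNA only, so neither the phosphate nor loading on DNA was observed.

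Rif1 itself was lowered in both settings. Its brightest probe set read 1259.8 and 1297 in J1 Rif1 shRNA arrays against 2614 and 3222 in J1 control arrays, and 1339 and 1407 in F1 Rif1 shRNA arrays against 4231 and 4247 in F1 control arrays. This left 47.2% of the control level in J1 (limma adjusted p = 6.54e-05) and 29.9% in F1 (limma adjusted p = 3.23e-07). The knockdown was deeper in F1, where the F1 effect minus the J1 effect was -0.66 on the log2 scale (limma adjusted p = 0.00454). Median signals of the 8 arrays lay between 61.1 and 69.4, and precision is limited by having only 2 arrays a group. The 10 stem cell markers were present in all groups. Their summed signals were 46170 to 47900 in J1 Rif1 shRNA arrays and 46860 to 47200 in J1 control arrays. In F1 they were 56400 to 57380 in Rif1 shRNA arrays and 56940 to 58930 in control arrays. Bright markers weigh most in these sums, so they do not show the changes of single markers, which are given below.

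In F1 cells most of the helicase genes were lower with Rif1 shRNA. Of the 26 member probe sets, 12 fell and 0 rose at an adjusted p under 0.05, where 6.81% of all probe sets fell and 8.28% rose. The 12 belong to 7 genes, Mcm3, Mcm4, Mcm5, Mcm6, Cdc6, Cdt1 and Mcm10. Both Rif1 shRNA arrays lay below both control arrays at 25 of the 26 probe sets after normalization, which holds for 35.5% of all probe sets, and the other probe set, of Cdc45, had both arrays above. The median log2 fold change of the 26 probe sets was -0.25 against -0.03 over all probe sets tested. The falls were small: the largest, of Mcm10, left 65.5% of the control level. A total of 20 had an unadjusted p under 0.05, against 8511 of the 31605 probe sets tested. Probe sets of 1 gene share their transcript, so the 26 values are not independent. The count of 12 became 6 without F1 control replicate 1 or F1 Rif1 replicate 2 and 7 without F1 control replicate 2 or F1 Rif1 replicate 1. In the same F1 arrays 12 of 15 markers of feeder fibroblasts rose, where 10.6% of all genes did. The cells that gave the markers' RNA and the markers' part in these falls were not tested. In bulk RNA, fewer cells of a type and less RNA per cell cannot be told apart.

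In J1 cells 48 h after transfection, 2 of the 26 member probe sets fell, those of Mcm4 and Mcm5, and 0 rose, where 1.74% of all probe sets fell and 1.44% rose. At an unadjusted p under 0.05 there were 10 in either direction, against 5404 of the 31605 probe sets tested. The Rif1 shRNA arrays lay below the control arrays at 13 of the 26, above them at 2, and overlapped them at 11. Of all probe sets, 21.0% had both Rif1 shRNA arrays below, and the share with both above was not counted. The J1 falls were both lost without any 1 F1 array or either J1 control array. The median log2 fold change was -0.07 against -0.001 over all probe sets tested. Taking each gene at its brightest kept probe set, 5 of 10 genes fell in F1, where 8.20% of all 14714 genes fell and 10.6% rose, and 2 of 10 fell in J1, where 2.17% fell and 1.86% rose.

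**Figure D1:**
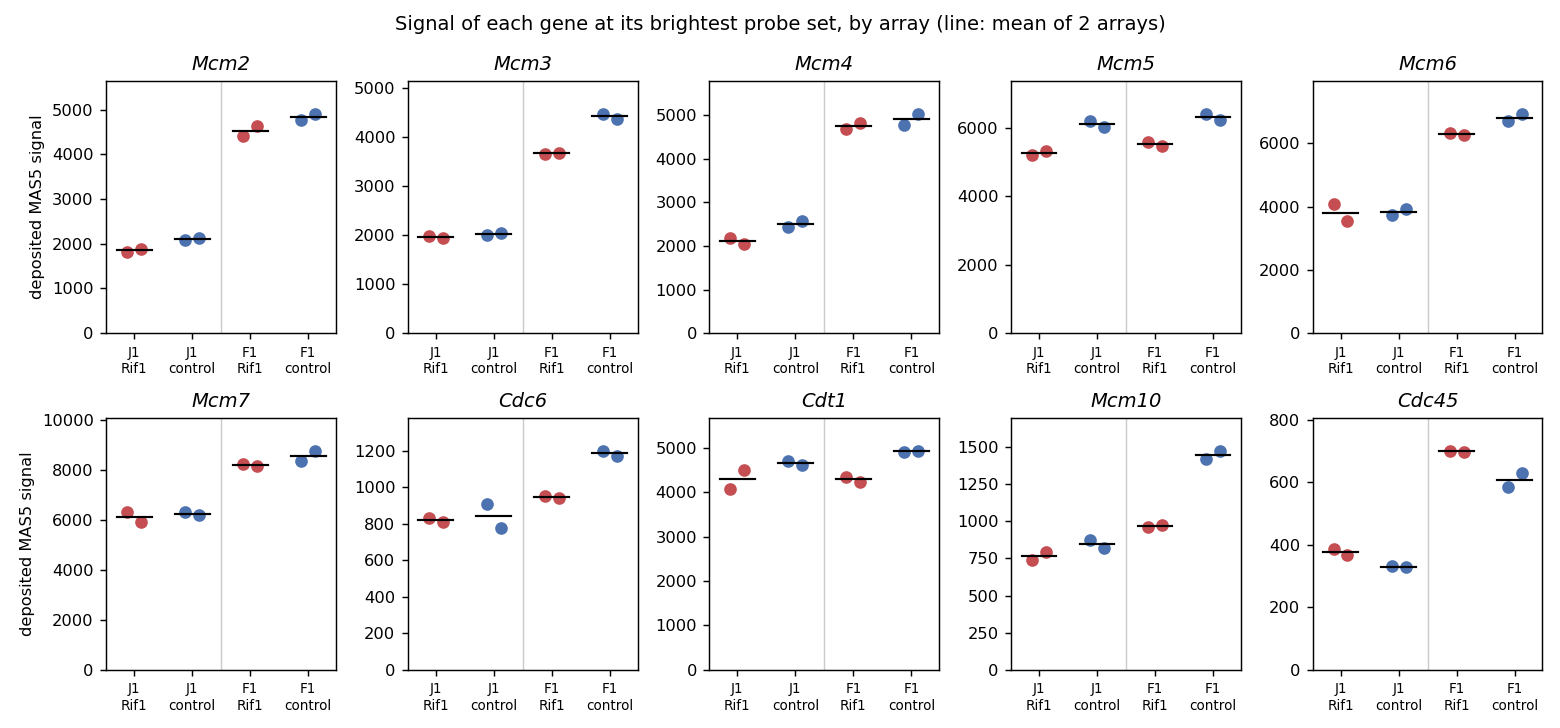
Deposited MAS5 signal on a linear axis from 0 for the brightest probe set of each of the 10 genes; each point is 1 array (Rif1 shRNA in red, control in blue), and each line is the mean of the 2 arrays of a group. In F1, Mcm10 read 964 and 978 with Rif1 shRNA and 1418 and 1477 in controls, the widest gap of the 10 relative to its level, and Cdc45 read 701 and 698 with Rif1 shRNA and 585 and 629.6 in controls, the reverse order.

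The start regions of 4 of these genes are printed here because they stand for the main patterns: Mcm10 fell most in F1, Mcm5 fell in both settings, Cdc6 fell in F1 with a single probe set, and Cdc45 passed in neither setting. Each is the 250 bases before the annotated start, read 5′ to 3′ on the gene's strand, from RefSeq on GRCm38.p6. Capitals mark E2F-type matches and CCAAT matches on either strand. The intervals are chr2:5012792-5013041 on the minus strand for Mcm10, chr8:75109259-75109508 on the plus strand for Mcm5, chr11:98907901-98908150 on the plus strand for Cdc6, and chr16:18811973-18812222 on the minus strand for Cdc45.
Mcm10: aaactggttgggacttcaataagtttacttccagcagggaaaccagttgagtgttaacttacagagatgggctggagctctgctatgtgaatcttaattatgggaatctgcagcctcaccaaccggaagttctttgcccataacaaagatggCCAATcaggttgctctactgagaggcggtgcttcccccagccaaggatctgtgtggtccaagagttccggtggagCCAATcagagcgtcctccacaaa
Mcm5: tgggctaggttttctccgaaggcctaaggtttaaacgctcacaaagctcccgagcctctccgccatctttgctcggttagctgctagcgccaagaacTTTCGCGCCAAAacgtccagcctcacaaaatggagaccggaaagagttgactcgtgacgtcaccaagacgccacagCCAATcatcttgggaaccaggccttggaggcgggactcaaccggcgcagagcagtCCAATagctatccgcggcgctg
Cdc6: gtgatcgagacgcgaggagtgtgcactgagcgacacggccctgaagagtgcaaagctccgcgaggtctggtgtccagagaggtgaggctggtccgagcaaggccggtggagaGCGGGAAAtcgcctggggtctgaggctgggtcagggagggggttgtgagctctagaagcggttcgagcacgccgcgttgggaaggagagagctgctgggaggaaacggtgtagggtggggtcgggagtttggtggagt
Cdc45: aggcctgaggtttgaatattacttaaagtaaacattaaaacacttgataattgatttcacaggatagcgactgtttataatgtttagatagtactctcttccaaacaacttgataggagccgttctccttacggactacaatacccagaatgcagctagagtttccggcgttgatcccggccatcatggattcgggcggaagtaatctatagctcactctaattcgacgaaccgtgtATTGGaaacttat

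E2F factors are the transcription factors that switch on S phase genes, and NF-Y is the factor that binds CCAAT. The letters searched as E2F-type were TTTCCCGC, TTTCGCGC, TTTGCCGC and TTTGGCGC, each on both strands, in windows that run from 250 bases before the start to 50 bases after it. A window was listed for 9 of the 10 genes; Mcm4 had none. An E2F-type match was present for 6 of these 9 genes (66.7%), against 507 of 11779 tested genes with a window (4.30%) and 2.6% of all genes in the table. CCAAT was present for 7 of the 9 (77.8%), against 42.4% of tested genes with a window and 41.1% of all genes in the table.

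The Mcm5 sequence holds an overlapping pair of E2F-type matches at positions -153 and -149, counted from the start, and the Cdc6 sequence holds 1 at -138. Mcm6 has an overlapping pair at -110 and -106 and another at -47. Mcm7, which has 2 listed starts, has matches at -165 and 17 of the second, where the match at 17 shares its last base with a CCAAT match. Cdt1 has 1 at position 33, behind the start. The pair of Mcm3 lies behind the start as well, at positions 20 and 39, within chr1:20820267-20820293 on the minus strand.
Mcm3: GCGGGAAAacttgggaagtTTTGGCGC
Mcm2, Mcm10 and Cdc45 had no E2F-type match in these windows. Of the 6 genes with a match, 5 had a probe set that fell in F1, though the brightest of Mcm6 did not pass. Of the 3 without a match, 1 had such a probe set, which was Mcm10. At the brightest probe set, 8.20% of all genes fell in F1. The share among all genes with a match was not counted, and no test of a link was made. A match is a stretch of letters and not a shown binding site.

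**Figure D2:**
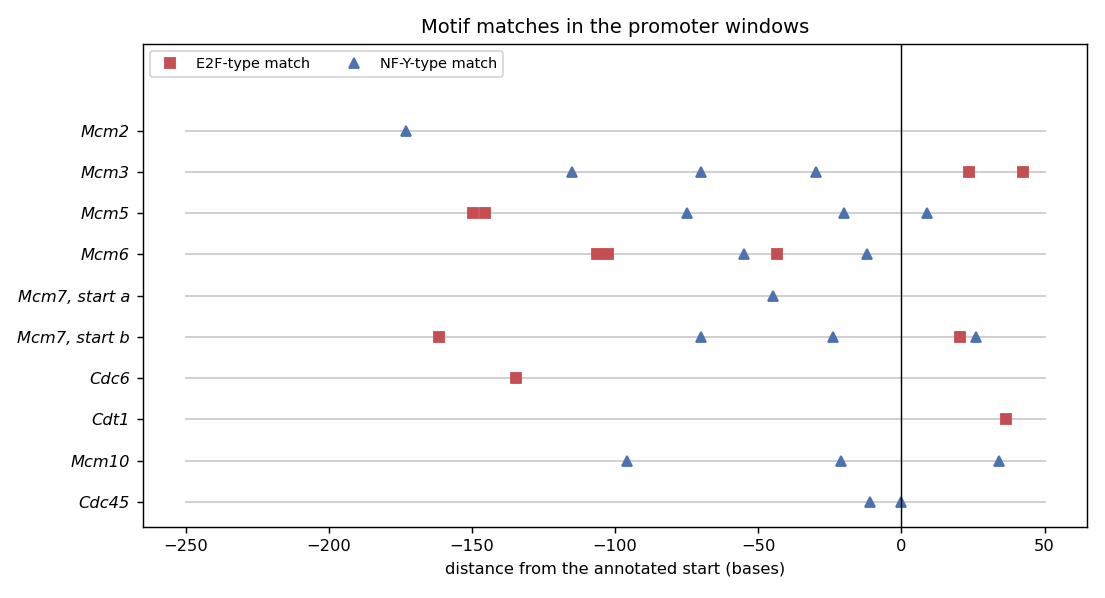
Positions of E2F-type matches (red squares) and NF-Y-type matches (blue triangles) in the windows of the 9 genes with a listed start, as the distance of the middle of each match from the annotated start in bases; Mcm7 has 2 starts. Mcm5 and Mcm6 hold overlapping E2F-type pairs before the start, Mcm3 and Cdt1 have theirs behind it, and Mcm2, Mcm10 and Cdc45 have none.

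Among the ring subunits, Mcm3 changed most clearly in F1. Mcm3 is a subunit whose tail, in budding yeast, guides the ring to the loading complex. Its brightest probe set (1420028_s_at) read 3649 and 3677 in F1 Rif1 shRNA arrays, against 4463 and 4362 in F1 control arrays, and 1969.5 and 1936 in J1 Rif1 shRNA arrays, against 2006 and 2039 in J1 control arrays. The F1 groups stood well apart, and in J1 the gap between the groups was close to the distance between replicates. It fell in F1 by 0.31 on the log2 scale (SE 0.05, limma adjusted p = 0.000973), to 80.7% of the control level. In J1 its value was -0.04 on the same scale (SE 0.05, limma adjusted p = 0.707).

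Of the other Mcm3 probe sets, 1426652_at read 3080.2 and 2979 in F1 Rif1 shRNA arrays, against 3707 and 3867 in F1 control arrays, and fell by 0.37 (SE 0.05, limma adjusted p = 0.00101). In J1 the same probe set read 1286 and 1279 with Rif1 shRNA, against 1298 and 1248 in controls, which overlapped. The third, 1449705_x_at, fell in F1 by 0.33 (limma adjusted p = 0.00173). The remaining 2 had log2 fold changes of -0.33 and -0.43 in F1 and did not pass (limma adjusted p = 0.0764 and 0.184). All 5 Mcm3 probe sets thus had an F1 value between -0.43 and -0.31. The F1 calls of the 3 that fell were kept under every alternative run, with adjusted p up to 0.0311.

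Mcm5, which lies beside Mcm2 at the gate of the ring, was lower in both settings. Its brightest probe set (1436808_x_at) read 5221 and 5327 in J1 Rif1 shRNA arrays, against 6209 and 6023 in J1 control arrays. In F1 it read 5593 and 5487 with Rif1 shRNA, against 6416 and 6249 in controls. No Rif1 shRNA array reached a control array in either setting. It fell by 0.20 in J1 (SE 0.04, limma adjusted p = 0.0267), to 87.0% of control, and by 0.26 in F1 (SE 0.04, limma adjusted p = 0.00154), to 83.7%. The F1 call was lost without an intensity trend (limma adjusted p = 0.0603). The F1 effect minus the J1 effect was -0.06, with a 95% interval of -0.18 to 0.07 (limma adjusted p = 0.628).

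Another Mcm5 probe set, 1415945_at, read 3076 and 3181 with Rif1 shRNA in F1, against 3560.2 and 3674 in controls, and fell by 0.25 (limma adjusted p = 0.00928); this call was lost without F1 control replicate 2 (0.0919), F1 Rif1 replicate 1 (0.123) or F1 Rif1 replicate 2 (0.0562). In J1 it had a log2 fold change of -0.14 (limma adjusted p = 0.203). The third Mcm5 probe set had -0.21 in both settings and passed in neither. The J1 call of 1436808_x_at was lost with only the 4 J1 arrays (limma adjusted p = 0.112) and without any array other than the J1 Rif1 arrays (0.052 to 0.112).

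Mcm4, whose tail is a main substrate of Cdc7 with Dbf4, gave different answers at its 2 probe sets. The brightest (1416214_at) read 2188 and 2051 in J1 Rif1 shRNA arrays, against 2435 and 2567 in J1 control arrays, and fell by 0.22 (SE 0.05, limma adjusted p = 0.0493), to 85.9% of control. In F1 it read 4687 and 4826 with Rif1 shRNA, against 4781 and 5036 in controls, which overlapped in deposited signal. The F1 log2 fold change was -0.08, with a 95% interval of -0.19 to 0.04 (limma adjusted p = 0.392). The J1 call stood at the edge of the threshold: it was lost with only the 4 J1 arrays (limma adjusted p = 0.186) and without any 1 array other than J1 Rif1 replicate 1 (0.0662 to 0.243).

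The other Mcm4 probe set, 1436708_x_at, read 1173 and 1183 with Rif1 shRNA in F1, against 1811 and 1392 in controls. It fell by 0.47 (SE 0.12, limma adjusted p = 0.0204), and the 2 control arrays differed from each other by more than the nearer one did from the Rif1 shRNA arrays. Without F1 control replicate 1 the value was -0.28 (limma adjusted p = 0.183), and the call was also lost without F1 Rif1 replicate 1 (0.115) or replicate 2 (0.0956). In J1 it read 1473 and 1775 with Rif1 shRNA, against 2251 and 1979 in controls (log2 fold change -0.35, limma adjusted p = 0.144).

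Mcm6 showed the same disagreement between probe sets. The brightest (1416251_at) read 6337 and 6274 with Rif1 shRNA in F1, against 6704 and 6932 in controls, with a log2 fold change of -0.14 and a 95% interval of -0.26 to -0.01 (limma adjusted p = 0.135). The other, 1438852_x_at, read 1972 and 1959 with Rif1 shRNA in F1, against 2643 and 2408 in controls, and fell by 0.40 (SE 0.08, limma adjusted p = 0.00551), a call that was lost without F1 control replicate 1 (-0.33, limma adjusted p = 0.0657). In J1 the brightest probe set read 4091 and 3535 with Rif1 shRNA and 3735 and 3919.7 in controls, so the arrays overlapped. Probe sets whose name ends in _x_at contain probes that can also bind other transcripts, and the only F1 falls of Mcm4 and Mcm6 past the threshold were at such probe sets. The brightest probe set of Mcm5, 1436808_x_at, and the Mcm3 probe set 1449705_x_at are of this kind too. Averaging the kept probe sets of a gene gave -0.27 for Mcm4 (limma adjusted p = 0.00831) and -0.27 for Mcm6 (limma adjusted p = 0.00186) in F1. These averages include the _x_at probe sets, so they cannot settle the disagreement.

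Mcm2 and Mcm7 did not pass at any probe set in either setting. Mcm2, which carries histone-binding and Cdc7-target sequences in its tail, read 4409 and 4629 with Rif1 shRNA in F1, against 4766 and 4909 in controls (log2 fold change -0.13, SE 0.05, limma adjusted p = 0.123). In J1 it read 1815 and 1891 with Rif1 shRNA, against 2076 and 2132 in controls (-0.16, SE 0.05, limma adjusted p = 0.116). Both Rif1 shRNA arrays lay below both controls each time, as they did for 35.5% of all probe sets in F1 and 21.0% in J1. With its 2 probe sets averaged, Mcm2 had a log2 fold change of -0.15 in F1 (limma adjusted p = 0.0474). That value came from a separate fit over gene averages, adjusted over genes.

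Mcm7, whose gene also hosts a microRNA cluster in an intron, was the least changed ring subunit by its brightest probe set in F1. It read 8256 and 8163 with Rif1 shRNA, against 8386 and 8782 in controls, a log2 fold change of -0.07 with a 95% interval of -0.18 to 0.03 (limma adjusted p = 0.377). The other 3 Mcm7 probe sets had -0.16, -0.13 and -0.17 in F1. The J1 values of all 4 ran from -0.13 to 0.05, and the brightest read 6323 and 5909 with Rif1 shRNA and 6320.5 and 6195 in controls, which overlapped.

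Both loaders fell in F1. Cdc6 is the ATPase that opens the way for the ring at the origin recognition complex. Its single probe set read 951 and 942 in F1 Rif1 shRNA arrays, against 1201 and 1172 in F1 control arrays, and 834 and 812 in J1 Rif1 shRNA arrays, against 908 and 776 in J1 control arrays. The F1 groups stood apart by far more than the distance between replicates, while the J1 Rif1 shRNA arrays lay between the 2 J1 control arrays. It fell in F1 by 0.36 (SE 0.08, limma adjusted p = 0.0109), to 78.0% of control, and the J1 value was -0.01 (limma adjusted p = 0.966).

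Cdt1, the carrier of the ring that geminin inhibits and that is destroyed in S phase, read 4348 and 4241 in F1 Rif1 shRNA arrays at its brightest probe set, against 4908 and 4943 in F1 control arrays. It fell by 0.22 (SE 0.05, limma adjusted p = 0.01), to 85.6% of control. The other kept probe set, 1424144_at, read 2417 and 2522 with Rif1 shRNA in F1, against 2861 and 2873 in controls, and fell by 0.24 (SE 0.06, limma adjusted p = 0.0208). In J1 the brightest read 4086 and 4512 with Rif1 shRNA and 4717 and 4623 in controls; the higher Rif1 shRNA array lay nearer to the controls than to its own replicate, and the log2 fold change was -0.11 (limma adjusted p = 0.275). The F1 calls of the loaders were lost without any 1 of the 4 F1 arrays, with adjusted p of 0.0543 to 0.0825 for Cdc6, 0.0575 to 0.111 for the brightest Cdt1 probe set and 0.0761 to 0.209 for the other, while the log2 fold changes stayed between -0.38 and -0.21.

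Of the activation factors, Mcm10 fell in F1 and Cdc45 passed in neither setting. Mcm10, needed for the loaded rings to separate and start to unwind DNA, had the largest fall of the 10 genes. Its brightest probe set (1433408_a_at) read 964 and 978 in F1 Rif1 shRNA arrays, against 1418 and 1477 in F1 control arrays, and 736 and 792 in J1 Rif1 shRNA arrays, against 873 and 818 in J1 control arrays. The groups did not overlap in either setting, and in F1 the gap was many times the distance between replicates. It fell in F1 by 0.61 (SE 0.07, limma adjusted p = 0.000125), to 65.5% of control, and kept this call under every alternative run, with adjusted p up to 0.00345. In J1 its value was -0.12 (SE 0.07, limma adjusted p = 0.384).

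The other Mcm10 probe sets were dim. The brighter of them, 1433407_at, read 76.9 and 58.8 with Rif1 shRNA in F1, against 107 and 105 in controls, and fell by 0.48 (SE 0.12, limma adjusted p = 0.0202). This call was lost without F1 control replicate 1 (0.133), F1 control replicate 2 (0.107) or F1 Rif1 replicate 2 (0.236). The other, 1454244_at, read 35.65 and 41.8 with Rif1 shRNA in F1, against 51.8 and 54.6 in controls, with -0.30 (limma adjusted p = 0.0828). In J1 these 2 had log2 fold changes of -0.01 and 0.13.

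Cdc45, the component that joins the ring with GINS, was the only one of the 10 genes with a positive F1 value at its brightest probe set. That probe set (1416575_at) read 701 and 698 in F1 Rif1 shRNA arrays, against 585 and 629.6 in F1 control arrays, and 386 and 367 in J1 Rif1 shRNA arrays, against 331 and 328 in J1 control arrays. All Rif1 shRNA arrays lay above the controls of their setting. The reverse order, both below, held for 35.5% of all probe sets in F1 and 21.0% in J1. The share with both above was not counted. The log2 fold change was 0.15 in F1, with a 95% interval of -0.01 to 0.31 (limma adjusted p = 0.219), and 0.20 in J1, with an interval of 0.04 to 0.37 (limma adjusted p = 0.176), so neither passed. The other Cdc45 probe set, at 109.5 to 144 across all arrays, had -0.07 in F1 and -0.04 in J1.

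**Figure D3:**
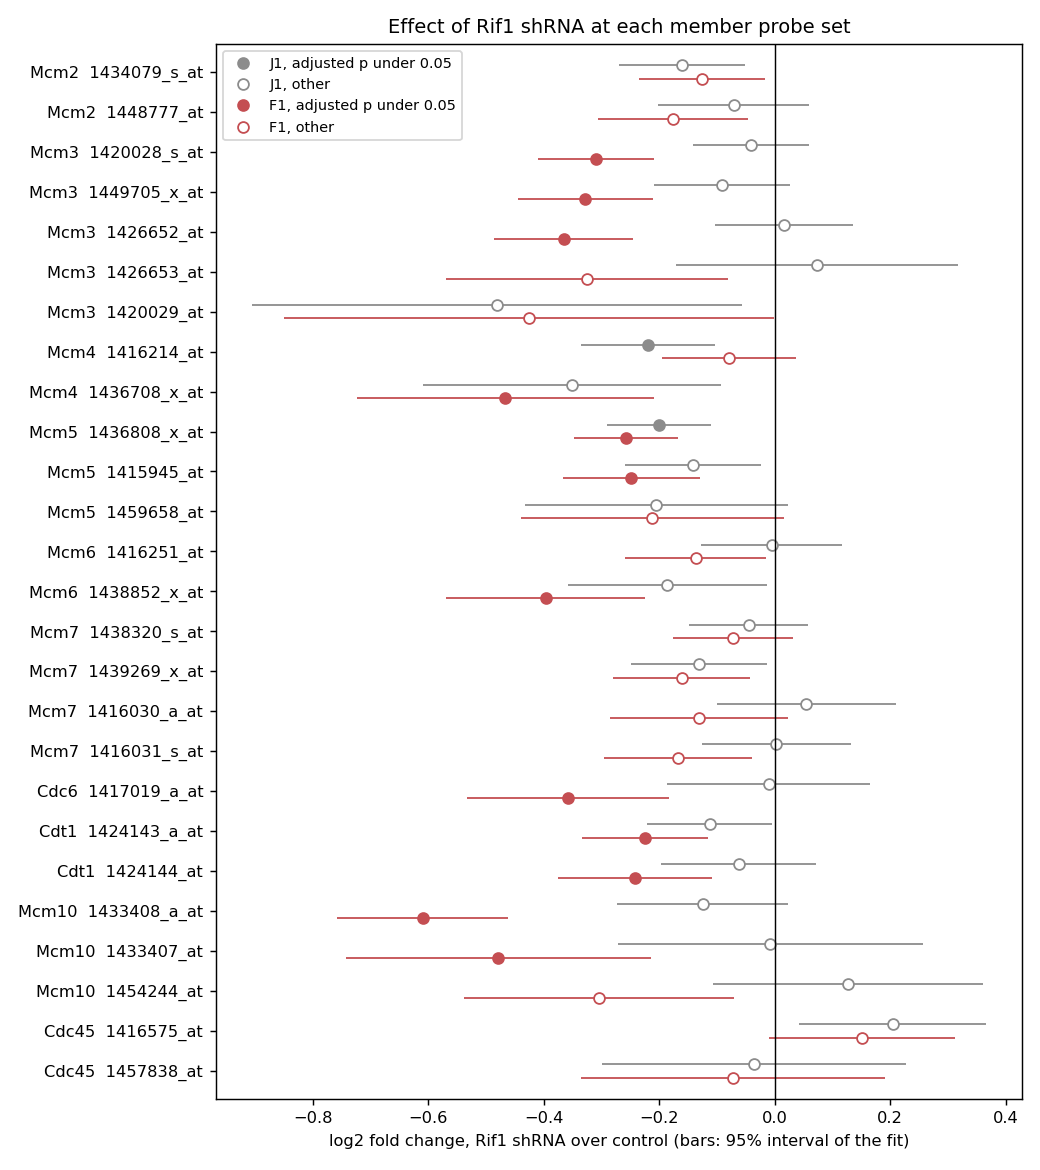
Log2 fold change of Rif1 shRNA over control for all 26 kept probe sets of the 10 genes, J1 in grey and F1 in red, with the 95% interval of the fit; filled points have an adjusted p under 0.05. In F1 25 of 26 points lie left of 0 and 12 are filled, and in J1 20 of 26 lie left of 0 and 2 are filled. Of all probe sets tested, 55.85% had a negative value in F1 and 50.31% in J1.

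Whether the effect differed between the settings was tested as the F1 effect minus the J1 effect. The F1 effect was lower at 3 of the 26 probe sets and higher at 0, where it was lower at 3.37% and higher at 4.99% of all probe sets. The 3 were Mcm10 1433408_a_at (-0.49, SE 0.10, limma adjusted p = 0.00985), Mcm3 1426652_at (-0.38, SE 0.08, limma adjusted p = 0.0114) and Mcm3 1420028_s_at (-0.27, SE 0.06, limma adjusted p = 0.0269). Of the 26 differences, 23 were negative, as were 53.43% of those of all probe sets. Their median was -0.12 against -0.02 over all probe sets. For the remaining genes the difference did not pass at any probe set, and for Cdc6 it was -0.35 (limma adjusted p = 0.0879).

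These differences were less secure than the F1 falls themselves. With arrays scaled to their medians, Mcm10 had -0.40 (limma adjusted p = 0.0555) and the Mcm3 probe sets -0.31 (0.119) and -0.19 (0.349). The Mcm10 difference was also lost without F1 control replicate 2 (0.0519), F1 Rif1 replicate 1 (0.0631) or F1 Rif1 replicate 2 (0.051), and that of Mcm3 1426652_at without the same arrays (0.0508 to 0.082). That of Mcm3 1420028_s_at was lost without either J1 control array or any F1 array (0.0569 to 0.152).

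**Figure D4:**
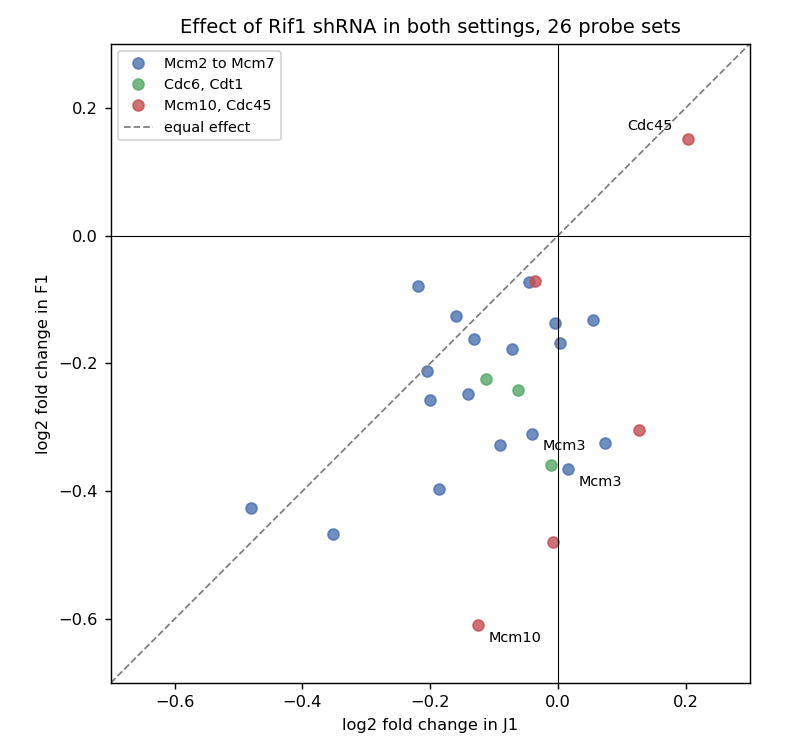
Log2 fold change of Rif1 shRNA over control in F1 (vertical) against J1 (horizontal) for the 26 kept probe sets, coloured by role, with the dashed line marking an equal effect. The probe sets of Mcm10 and Mcm3 named in the plot differ between the settings at an adjusted p under 0.05 and lie below the line, and the brightest probe set of Cdc45 lies above 0 in both settings.

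The direction in F1 did not depend on the scaling, since 25 of the 26 log2 fold changes were negative with quantile normalization across all arrays, within each setting, with median scaling and as deposited. In J1, 18 to 22 of the 26 were negative over these 4. With quantile normalization across all arrays, 55.85% of all probe sets tested were negative in F1 and 50.31% in J1. Levels of the same probe set in the control cells differed between F1 and J1 in a way that depended on the probe set and on the scaling. In F1 control arrays against J1 control arrays, 13 of the 26 were higher and 8 lower, where 33.5% and 34.0% of all probe sets were, and 5 of the 10 genes had probe sets called in both directions. Normalized within each setting, the counts were 20 higher and 3 lower. No order of level between the cell types is therefore given.

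Arrays of a setting were also set on a common profile, the mean of the 6 ring subunits at their brightest probe sets, centred within each setting. Over the 8 arrays, which share their groups and normalization, Pearson's r of a gene with this profile was 0.869 for Mcm10, 0.849 for Cdt1, 0.7095 for Cdc6 and -0.835 for Cdc45. The ring subunits, which are part of the profile, ran from 0.7495 for Mcm6 to 0.941 for Mcm5. Outside the 10 genes, the most alike were Slc25a40 (0.995), Trim33 (0.994), the mismatch repair gene Msh6 (0.9925), Dpp3 (0.992) and Frrs1 (0.991). Msh6 had log2 fold changes of -0.24 in F1 (limma adjusted p = 0.00763) and -0.20 in J1. These correlations are descriptions only.

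Some of the helicase's partners in licensing fell in F1. Of 18 measured partners, namely origin recognition subunits, Cdt1 regulators and MCM relatives, 6 fell and 0 rose, where 8.20% of all genes fell and 10.6% rose, with a median of -0.20 against -0.02 over all genes. The remaining 12 did not pass. Geminin (Gmnn), the inhibitor of Cdt1, fell by 0.28 (limma adjusted p = 0.00586). Orc1, the cell cycle regulated ATPase of the origin recognition complex, fell by 0.34 (limma adjusted p = 0.00883), its partner Lrwd1 by 0.34 (limma adjusted p = 0.00909) and Orc5 by 0.25 (limma adjusted p = 0.0215). The others that fell were Mcm8 (-0.31, limma adjusted p = 0.0279) and Fbxo5 (-0.31, limma adjusted p = 0.0411). This count was 3 without F1 control replicate 1, 1 without F1 control replicate 2 and 0 without either F1 Rif1 array.

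In J1, 2 of these 18 rose and 1 fell, where 1.86% of all genes rose and 2.17% fell. Orc6 rose by 0.35 (limma adjusted p = 0.00643) and Orc4 by 0.38 (limma adjusted p = 0.0196), while Cul4b, the scaffold of a ligase that destroys Cdt1 in S phase, fell by 0.27 (limma adjusted p = 0.0306). The Orc6 call was lost with median scaling (limma adjusted p = 0.0623) and without an intensity trend (0.0735). With only the 4 J1 arrays Orc4 (limma adjusted p = 0.153) and Cul4b (0.146) did not pass. The calls of these 2 were also lost without J1 control replicate 1 (0.0711 for Orc4, 0.0526 for Cul4b), J1 control replicate 2 (0.101 and 0.186), J1 Rif1 replicate 2 (0.0503 and 0.0858) and either F1 Rif1 array, and that of Cul4b without either F1 control array.

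The list of 22 firing factors holds genes that turn the loaded ring into a fork. It also holds fork protection factors and catalytic subunits of the phosphatase that Rif1 recruits. Of the 22, 6 fell and 1 rose in F1, where 8.20% of all genes fell and 10.6% rose. In J1 1 fell, where 2.17% of all genes fell. The median log2 fold change of the 22 was -0.11 in F1 against -0.02 over all genes, and 0.005 in J1 against 0.006. Dbf4, the partner of Cdc7, fell in F1 by 0.35 (limma adjusted p = 0.00177), the fork protection factor Timeless by 0.35 (limma adjusted p = 0.00267) and the GINS subunit Gins1 by 0.30 (limma adjusted p = 0.00879). Ticrr, Topbp1 and Pole2 fell as well, by 0.38, 0.20 and 0.30. The gene that rose was Ppp1cc (0.23, limma adjusted p = 0.00228), a catalytic subunit of the phosphatase that Rif1 recruits; with median scaling it had 0.18 (limma adjusted p = 0.119). Cdc7 itself had 0.05 (limma adjusted p = 0.739). Without 1 of the F1 arrays 2 to 3 firing factors fell, Gins1 being lost each time (0.0515 to 0.0894), whereas Dbf4 and Timeless passed under every alternative run. In J1 the gene that fell was Topbp1 (-0.25, limma adjusted p = 0.0482), which had an adjusted p of 0.242 with only the 4 J1 arrays and did not pass without any 1 array other than J1 Rif1 replicate 2 (0.0758 to 0.172).

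Among 25 measured genes that rise at the passage from G1 to S phase, many of them textbook E2F targets, 12 fell and 1 rose in F1. Their median was -0.19 against -0.02 over all genes. Of all genes, 8.20% fell and 10.6% rose in F1, and 2.17% fell and 1.86% rose in J1. Uhrf1, which guides maintenance DNA methylation, fell by 0.54 (limma adjusted p = 0.000148), the polymerase alpha subunit Pola1 by 0.53 (limma adjusted p = 0.000282), the ribonucleotide reductase subunit Rrm2 by 0.35 (limma adjusted p = 0.000416) and the uracil glycosylase Ung by 0.44 (limma adjusted p = 0.000506). These 4 passed under every alternative run. The gene that rose was Ccne2 (0.37, limma adjusted p = 0.0193), while its relative Ccne1 fell by 0.25 (limma adjusted p = 0.0129). Pcna, the sliding clamp, had -0.01 (limma adjusted p = 0.953), and E2f1 had -0.27 (limma adjusted p = 0.23). Without either F1 Rif1 array 7 of the 25 fell. In J1 1 fell, Cdca7 (-0.30, limma adjusted p = 0.0289), which had 0.208 with only the 4 J1 arrays and passed only without J1 Rif1 replicate 1 among the arrays left out (0.0569 to 0.14 otherwise).

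**Figure D5:**
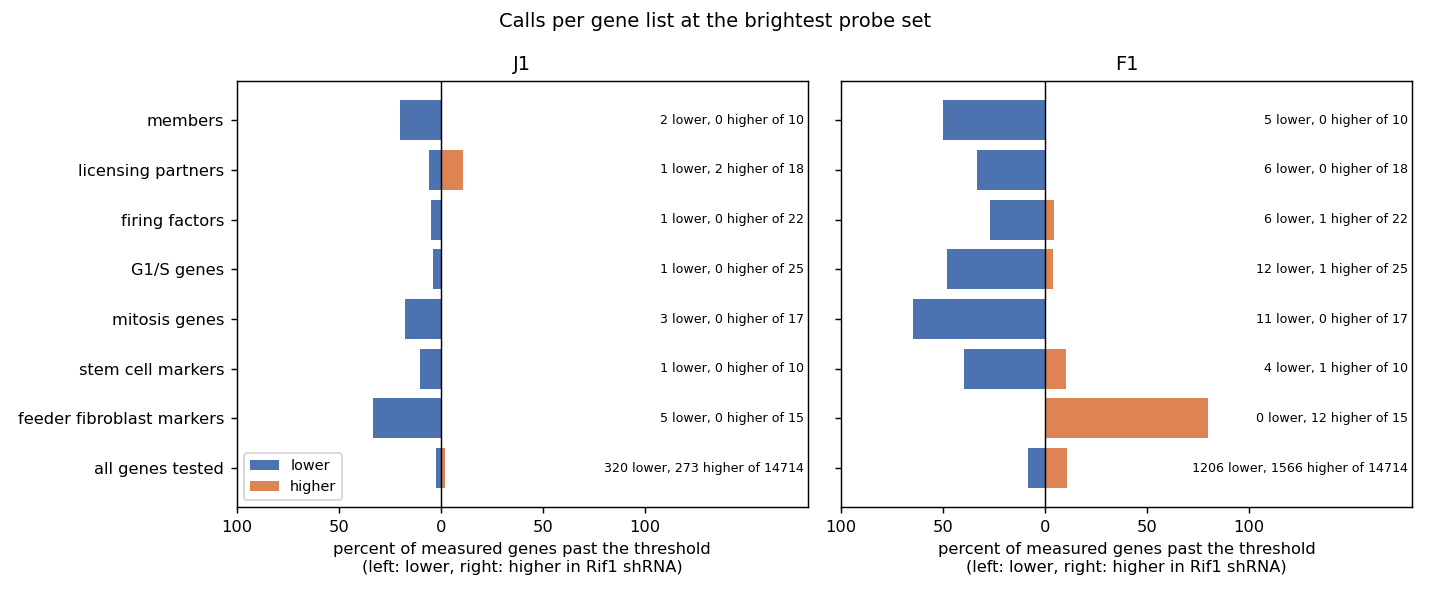
Percent of the measured genes of each list that were lower (blue, to the left) or higher (orange, to the right) with Rif1 shRNA at an adjusted p under 0.05, each gene at its brightest probe set, J1 left and F1 right, with the counts beside the bars. In F1 5 of 10 members, 12 of 25 G1/S genes and 11 of 17 mitosis genes were lower, and 12 of 15 feeder fibroblast markers were higher. Of all genes tested in F1, 8.20% were lower and 10.6% higher.

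Genes of mitosis, which act after replication and mark dividing cells, fell too: 11 of 17 in F1 and 3 of 17 in J1. Of all genes, 8.20% fell and 10.6% rose in F1, and 2.17% fell and 1.86% rose in J1. The median of the mitosis genes in F1 was -0.37 against -0.02 over all genes. Feeder fibroblast markers moved the other way in F1, where 12 of 15 rose, with a median of 1.29 against -0.02 over all genes. Whether the RNA of these markers came from feeder cells or from the stem cell cultures themselves was not tested. Col1a1 (0.62, limma adjusted p = 0.0591), Fn1 (0.12, 0.334) and Pdgfrb (0.27, 0.126) did not pass. The summed signal of the 15 was 34670 to 36230 in F1 Rif1 shRNA arrays and 17910 to 18210 in F1 control arrays. In J1, where 5 of the 15 fell, it was 12310 to 12560 with Rif1 shRNA and 13310 to 14240 in controls. Bright genes weigh most in these sums. Group means in F1, Rif1 shRNA against control, were 6897 against 3069 for Lgals1 and 6001 against 2444 for S100a6. For Col1a1 they were 190 against 102. The lowest single value was 27.2, in a J1 control array, below the array medians of 61.1 to 69.4. The 15 were the markers past the filter on dim signals, so presence of each in every group is not shown. Of the 10 stem cell markers, 4 fell and 1 rose in F1, where 8.20% of all genes fell and 10.6% rose. Those that fell were Esrrb (-0.54, limma adjusted p = 0.000104), Utf1 (-0.37, 0.00629), Zfp42 (-0.28, 0.00384) and Sox2 (-0.26, 0.00258). Tdgf1 rose (0.25, limma adjusted p = 0.0103), and Pou5f1 and Nanog did not pass. In J1 1 of the 10 fell, where 2.17% of all genes did.

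RNA quality moved with the groups in J1: the 3′ to 5′ ratio of the actin control probe sets was 2.18 and 2.17 in J1 Rif1 shRNA arrays against 2.71 and 2.61 in J1 control arrays, and 1.33 to 1.41 over the 4 F1 arrays. Its part in the J1 values and in the differences between the settings was not tested. The median residual SD was 0.11 in J1 and 0.07 in F1 on the log2 scale and the fit over all 8 arrays gives both settings the same spread. Fitted with their own 4 arrays, J1 had 280 probe sets past the threshold in place of 1004 and F1 had 8127 in place of 4768. With only the 4 F1 arrays the brightest Mcm6 probe set passed as well (limma adjusted p = 0.0307), and with only the 4 J1 arrays 0 of the 26 member probe sets passed.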

How the data were processed

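Total RNA was hybridised to Affymetrix mouse arrays, 2 for each of 4 groups. The deposited values are linear intensity signals, 1 per probe set, made by the authors with MAS5, per the submitters' processing notes. The version and settings of MAS5 are not given in the sources used here. Of 45101 rows, 64 were controls. The 2% trimmed means were 193 to 197 in J1 and 301 to 309 in F1, a gap over 5%, so log2(signal + 18) was quantile normalized across the 8 arrays; 18 is the 10th percentile of all values and shrinks changes of dim probe sets. A probe set was kept where it exceeded the array's 40th percentile on 2 or more arrays.

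Group means were fitted with limma 3.58.1 in R 4.3.3 (eBayes with an intensity trend, 4 residual and 6.94 prior degrees of freedom), two-sided, with Benjamini-Hochberg adjustment over all 31605 probe sets tested and a threshold of 0.05. Intervals are the fit's 95% intervals. Averages over the probe sets of a gene came from a separate fit, with adjustment over genes and not over probe sets. The fit was run on simulated data with known changes and the same spread in J1 and F1. Such data cannot show how the unlike spread of the settings acts on the calls. Fold changes and percents of control refer to signal + 18 after normalization. Genes were named from the platform annotation, where 34945 probe sets had 1 symbol, 932 several and 9160 none, and those with several were used for no gene. Each gene of a list is represented by the kept probe set with the highest mean signal.

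The members and the gene lists were chosen with earlier results of these data known. The text names all members, the Rif1 probe sets and the 5 genes most like the helicase profile. From each of the licensing, firing and G1/S lists it names up to 4 genes with the smallest p among those past the threshold. The stem cell, feeder and mitosis lists are given mainly by counts. Mcm8, Fbxo5, Ticrr, Pole2, Cdc7, Ccne1, Ccne2, Pcna, E2f1, and Topbp1 in F1, were named after their values were seen. So were the feeder markers Col1a1, Fn1, Pdgfrb, Lgals1 and S100a6, and the stem cell markers Esrrb, Utf1, Zfp42, Sox2 and Tdgf1. List genes not measured past the filter included Mcmdc2, Chaf1a, Ccnb1, Fbn1, Lum and Loxl2. Promoter windows came from RefSeq; protein sequences were not used here. Replicates of a group correlated at 0.991 to 0.997 and held 12 to 22 identical values of 45101. Plots used matplotlib 3.10.9 (Python 3.11.15). The alternatives changed the offset, filter, scaling, spread, threshold or replicate block, averaged the probe sets of a gene, or left out an array.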

Additional observations from a re-analysis of the deposited data

Results flagged for a closer look

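The F1 effect minus the J1 effect is given for the members' probe sets, for Rif1 and for named genes of the licensing, firing and G1/S lists. For Rif1 itself, at its brightest probe set, it was -0.66 (limma adjusted p = 0.00454). Among the helicase genes it passed for Mcm10 1433408_a_at at -0.49, Mcm3 1420028_s_at at -0.27 and Mcm3 1426652_at at -0.38. In each the effect of Rif1 shRNA was lower in F1 than in J1.

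Among the pathway lists, the difference was -0.35 for Gmnn, -0.39 for Lrwd1 and -0.45 for Orc1, which fell in F1 with J1 values of 0.06, 0.05 and 0.11 that did not pass. It was -0.42 for Orc4, which rose in J1 and had -0.04 in F1, and 0.43 for Cul4b, which fell in J1 and had 0.16 in F1. It was 0.24 for Ppp1cc, which rose in F1. For the G1/S genes it was -0.52 for Uhrf1 (limma adjusted p = 0.00432), -0.40 for Pola1, -0.37 for Ung and -0.39 for Ccne1, and for the firing factor Pole2 it was -0.41. Strain, time, delivery, depth of knockdown and RNA quality, by the actin 3′ to 5′ ratio, differ between the settings and cannot be told apart.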

How the results depend on the processing

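The J1 count of 1004 probe sets became 489 with median scaling, 280 with only the 4 J1 arrays, 350 without an intensity trend, 271 at an adjusted p under 0.01 and 229 to 1763 with 1 array left out. The F1 count of 4768 became 8127 with only the 4 F1 arrays, 2592 at an adjusted p under 0.01 and 1856 to 6211 with 1 array left out. The count of differing effects, 2644, became 1144 at an adjusted p under 0.01 and 1014 to 3995 with 1 array left out. The 21336 probe sets that differed between the F1 and J1 controls were 17257 to 22464 with 1 array left out.

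Of the helicase genes' 2 J1 falls, 1 was left with no offset, with an offset of 72, with no filter and with robust eBayes, and 0 were left with median scaling, only the 4 J1 arrays, no trend and at an adjusted p under 0.01; leaving out 1 array gave 0 to 2. The 12 F1 falls became 7 without a trend and 7 at an adjusted p under 0.01, and 6 to 15 with 1 array left out. The 3 differing effects became 0 with median scaling, 1 without a trend and 1 at an adjusted p under 0.01, and 0 to 4 with 1 array left out. Of the 8 probe sets lower in F1 than in J1 controls, 2 were left as deposited, 3 with normalization within each setting and 3 with median scaling (7 to 9 with 1 array left out); the 13 higher ones became 20 with normalization within each setting (11 to 14 with 1 array left out). No member rose in J1 or F1 under any alternative run.

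The replicate numbers were tried as a replicate block although they did not pair the arrays: deviations of same-numbered arrays correlated at -0.34 in J1 and 0.19 in F1. With the replicate block 468 probe sets passed in J1, 3684 in F1 and 1709 for the difference, and the members' counts were 0 in J1, 11 in F1 and 2 for the difference. A crossed replicate block, added after the data were seen, gave 1088 and 5196 probe sets in J1 and F1, with 0 and 13 member falls.

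Some values near 0 changed sign. With 1 array left out, the J1 values ran from -0.0755 to 0.0674 for Mcm6, from -0.1003 to 0.0108 for Mcm7 and from -0.1299 to 0.1093 for Cdc6. Of the differences in effect, that of Mcm2 ran from -0.0004 to 0.074 and that of Mcm7 from -0.0805 to 0.0288 with 1 array left out. The difference of Mcm2 was -0.0357 with its probe sets averaged. That of Mcm5 was 0.0205 as deposited, 0.0026 with normalization within each setting and 0.0442 with median scaling, and that of Cdc45 was 0.017 as deposited and 0.0407 with median scaling. The cause of these changes was not tested beyond the fewer arrays or the stricter threshold itself. With 2 arrays a group, a change that does not pass cannot be read as no change, and dim probe sets are limited by their distance from the offset.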
